A study of Mus musculus with 12 samples.

Results

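The neuronal pentraxins Nptx1, Nptx2 and Nptxr and the AMPA receptor subunits Gria1, Gria2, Gria3 and Gria4 were described in the cortex of E4FAD mice given docosapentaenoic acid n-6 (DPAn-6) or its vehicle. The 7 genes were chosen by symbol, with earlier results of these data known. Each matched a single Ensembl identifier among the 50563 genes of the count table. E4FAD mice carry human APOE4 in both copies (APOE4+/+) in place of mouse Apoe, together with 1 copy of the 5FAD transgenes (5FAD-/+ in the labels, 5xFAD in the study's text), which drive amyloid formation from a neuronal promoter. Both groups carried these alleles, so the comparison was between treatments within a single genotype. The 5 DPAn-6 mice had received 700 mg/kg of the fatty acid by oral gavage each day for 3 weeks, and the 7 CTRL mice had received the vehicle with antioxidants. In the CTRL group, replicates 1 and 7 were 12 months old and 5 mice were 14 months old. In the DPAn-6 group, replicates 3 and 4 were 12 months old and 3 mice were 14 months old. Per the study's methods, CTRL held 4 females and 3 males and DPAn-6 held 3 females and 2 males, and the sex of the single mice was not used here. Each mouse gave a single library, so p-values judge a difference against the spread between libraries. That spread holds variation between mice and technical variation together.

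AMPA receptors are glutamate-gated ion channels that carry most fast excitatory transmission in the cortex, and each receptor is assembled from the GRIA1 to GRIA4 subunits. Neuronal pentraxins are extracellular proteins related to the pentraxins of innate immunity. NPTX1 and NPTX2 are secreted at synapses and NPTXR is anchored in the membrane. Together they form mixed complexes that bind AMPA receptors and cluster them, and Nptx2, also known as Narp, was first described as an activity-induced immediate early gene.

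The sequences of the members bear on how reads can be told apart. In the mouse annotation (GRCm38), the longest stretch shared by any pair of the 7 genes lay between AMPA receptor subunits, where the longest exact match ran from 35 to 57 bases per pair. It ran from 16 to 19 bases between pentraxins and from 11 to 14 bases between a pentraxin and a subunit. The longest match of all, 57 bases, is between Gria3 and Gria4, which share 3 distinct runs of 50 bases (repeats of a run not counted again). Gria2 and Gria3 share more distinct runs of 50 bases than any other pair of members (7). Their longest exact match, of 56 bases, is printed with the matching place in Gria1 and Gria4. Each stretch lies in a single coding exon, at chr11:57309815-57309870 (plus strand) for Gria1, chr3:80691333-80691388 (minus strand) for Gria2, chrX:41654856-41654911 (plus strand) for Gria3 and chr9:4432786-4432841 (minus strand) for Gria4. Bases that differ from Gria2 are in capitals.
Gria1: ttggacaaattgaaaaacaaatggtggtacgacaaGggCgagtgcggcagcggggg
Gria2: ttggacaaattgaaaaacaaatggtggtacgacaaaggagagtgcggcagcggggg
Gria3: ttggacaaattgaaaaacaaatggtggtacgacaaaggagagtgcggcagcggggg
Gria4: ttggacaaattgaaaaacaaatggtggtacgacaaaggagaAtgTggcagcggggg

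Gria1 and Gria4 each differed from Gria2 at 2 of the 56 bases. Such stretches were a small share of the genes, counted as distinct runs of 50 bases in the annotated transcripts. Of these runs 13 of 10481 in Gria2, 10 of 5482 in Gria3 and 9 of 6276 in Gria4 also occurred in another member. None of the runs in Nptx1, Nptx2, Nptxr or Gria1 did. Nptxr shares 890 exonic bases, 17.2% of its exon length, with Npcd on the same strand, and Npcd was listed with 0 counts in all 12 libraries. A read in the shared exon could be assigned to neither gene, so the level of Nptxr is uncertain by that share.

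The libraries held 15208803 to 26520251 reads counted in genes, and all 7 members passed the filter on low counts that left 15688 genes. Counts of a member ranged from 545 reads, the lowest for Nptx2, to 29507 reads, the highest for Nptxr. Levels are given as log2 CPM (counts per 1000000 counted reads) with 0.5 added. Differences between groups are log2 fold changes from edgeR's quasi-likelihood test with Benjamini-Hochberg adjustment over all genes, and a gene was called at an adjusted p below 0.05. CTRL replicate 3 stood apart in composition. Its trend of gene level on GC content was -0.50 log2 units per 10 percentage points of GC, against -0.13 to 0.20 in the other 11 libraries. The GC trend did not differ between the groups beyond the spread (two-sided exact permutation test, p = 0.956). For the trend of gene level on length, the two-sided exact permutation test between the groups gave an exact permutation p of 0.0846. Per doubling of length, that trend ran from -0.039 to 0.011 log2 units in the DPAn-6 libraries. In CTRL it ran from -0.007 to 0.075, the highest being replicate 3. Equal length trends in the 2 groups were thus not shown.

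Nptx2 (ENSMUSG00000059991, chr5:144545902-144557478, plus strand) was the only member called, and it was higher in the DPAn-6 mice. The CTRL mice ranged from 5.08 to 5.76 log2 CPM with a median of 5.34 (mean 5.37 ± 0.24, SD, n = 7). DPAn-6 replicates 1 to 5 had 6.36, 5.95, 6.17, 5.78 and 6.05 log2 CPM (mean 6.06 ± 0.22, SD, n = 5). Every DPAn-6 mouse was above every CTRL mouse, with the narrowest gap between DPAn-6 replicate 4 at 5.78 and CTRL replicate 2 at 5.76. On the linear scale the mean was 41.9 ± 7.23 CPM in CTRL (SD, n = 7) and 67.5 ± 10.3 CPM in DPAn-6 (SD, n = 5). The log2 fold change was 0.67 (SE 0.12, 95% interval 0.41 to 0.92), a 1.59-fold higher level, with an adjusted p of 0.0134 by edgeR's quasi-likelihood test. A two-sided exact permutation test of the log2 CPM gave p = 0.00253, where the smallest p that 792 splits allow is 0.00126. In bulk tissue, a difference in the number of cells of a type and a difference in RNA per cell cannot be told apart.

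Without CTRL replicate 3, the library that stood apart, the log2 fold change of Nptx2 was 0.64 (adjusted p = 0.00395 by edgeR). The call on Nptx2 was lost without DPAn-6 replicate 3 (log2 fold change 0.64, adjusted p = 0.0543 by edgeR, 0.403% of all genes called) and in the 14-month mice alone (log2 fold change 0.69, adjusted p = 0.234 by edgeR, 0.0564% called). In the 14-month mice the 3 DPAn-6 values stayed above the 5 CTRL values, with an exact permutation p of 0.0357.

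The other secreted pentraxin, Nptx1 (ENSMUSG00000025582, chr11:119538719-119547753, minus strand), was not called. It lay between 8.78 and 9.12 log2 CPM in CTRL with a median of 8.90 (mean 8.91 ± 0.11, SD, n = 7). DPAn-6 replicates 1 to 5 had 9.01, 9.01, 8.99, 9.09 and 9.06 log2 CPM (mean 9.03 ± 0.04, SD, n = 5). All 5 DPAn-6 mice were above the CTRL mean, but CTRL replicate 5 was higher than each of them. The edgeR log2 fold change was 0.10 (SE 0.06, 95% interval -0.03 to 0.22, adjusted p = 0.476). Without CTRL replicate 5 it was 0.14 (unadjusted p = 0.0180, adjusted p = 0.250 by edgeR). The two-sided exact permutation test of log2 CPM gave p = 0.0442, and p = 0.0568 once the libraries were scaled by the trimmed mean of M values (TMM).

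Nptxr (ENSMUSG00000022421, chr15:79786351-79804766, minus strand), which encodes the membrane-anchored pentraxin, had nearly the same mean in both groups. It ranged from 9.91 to 10.31 log2 CPM in CTRL with a median of 10.15 (mean 10.13 ± 0.15, SD, n = 7). In DPAn-6 it ranged from 9.998 to 10.31 with a median of 10.14 (mean 10.14 ± 0.11, SD, n = 5). The groups overlapped, and the edgeR log2 fold change was -0.01 (SE 0.08, 95% interval -0.18 to 0.16, adjusted p = 0.978). Its sign depended on the scaling, as it was 0.015 with library totals in place of TMM.

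**Figure D1:**
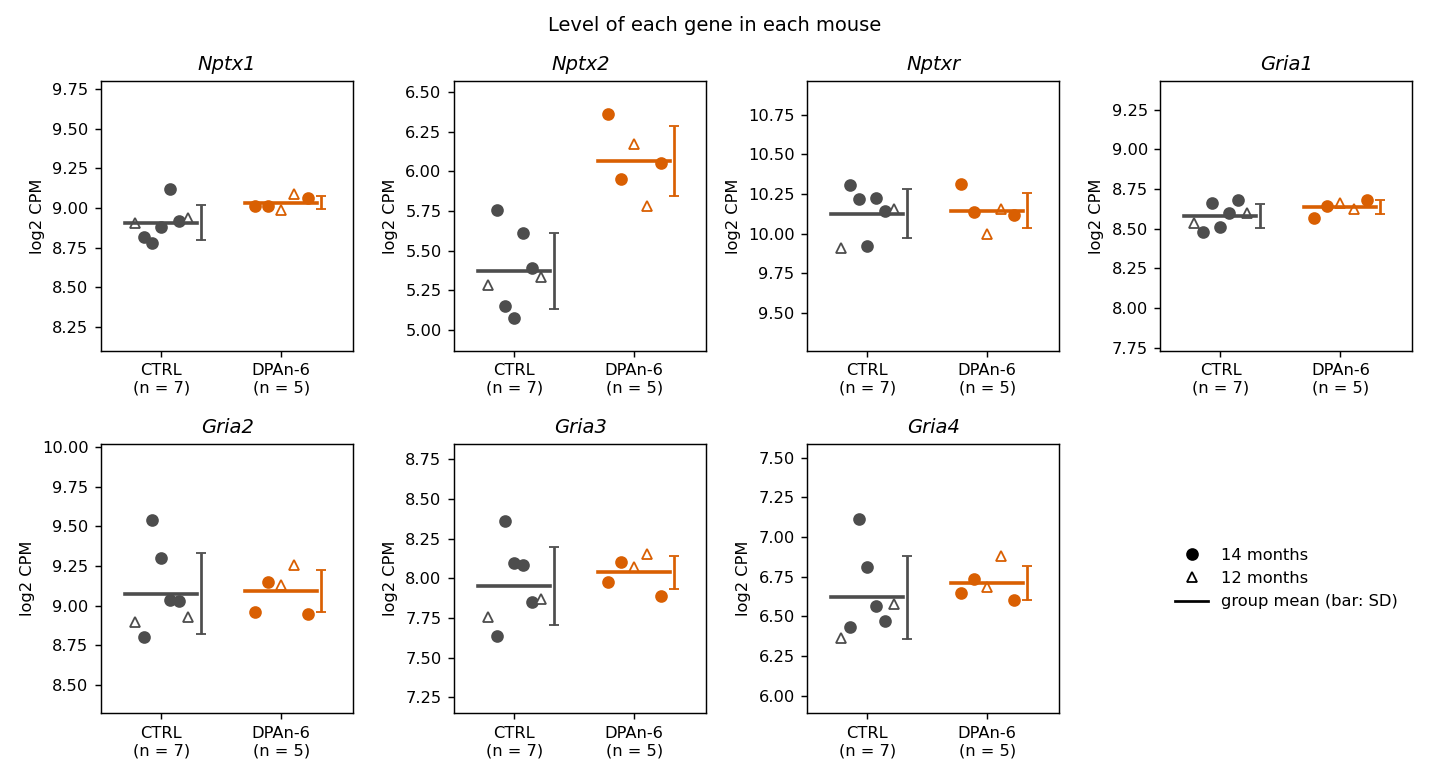
Level of each of the 7 genes in log2 CPM (vertical axis) for the 7 CTRL mice (grey) and the 5 DPAn-6 mice (orange); filled circles are 14-month mice, open triangles 12-month mice, lines the group means and bars the SD, and every panel spans the same number of log2 units. In the panel of Nptx2 the DPAn-6 mice lie from 5.78 to 6.36, above the CTRL mice at 5.08 to 5.76, while the groups overlap in the other 6 panels.

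The ratio between pentraxins within a library does not depend on the library scaling. The log2 ratio of Nptx2 to Nptxr was -4.75 ± 0.18 in CTRL (SD, n = 7) and -4.08 ± 0.21 in DPAn-6 (SD, n = 5). The 5 DPAn-6 mice were above every CTRL mouse, and the difference was 0.67 (two-sided exact permutation p = 0.00126, the smallest possible, and 0.00758 adjusted over the 6 ratios computed). The log2 ratio of Nptx2 to Nptx1 was -3.54 ± 0.23 in CTRL (SD, n = 7) and -2.97 ± 0.25 in DPAn-6 (SD, n = 5). It differed by 0.57 (exact permutation p = 0.00505, adjusted p = 0.0152), with 4 of 5 DPAn-6 mice above every CTRL mouse. The ratio of Nptx1 to Nptxr differed by 0.11 with overlapping groups (exact permutation p = 0.293, adjusted p = 0.351). In the 14-month mice alone, none of the 6 ratios had an adjusted p below 0.05. The difference of both Nptx2 ratios then had an exact permutation p of 0.0179, the smallest that 3 mice against 5 allow, and an adjusted p of 0.0536.

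None of the 4 AMPA receptor subunits was called, and none had an unadjusted p below 0.05 by edgeR with TMM scaling or by DESeq2. In other fits 2 of them did: Gria3 by edgeR with the length and GC trend of each library removed (log2 fold change 0.13, unadjusted p = 0.0478, adjusted p = 0.245) and Gria4 by limma-voom with sample weights (0.16, unadjusted p = 0.0304, adjusted p = 0.154). With the trend removed, the exact permutation test of Gria3 gave p = 0.0417. Gria1 (ENSMUSG00000020524, chr11:57011387-57330244, plus strand) encodes a subunit prominent in activity-dependent insertion of receptors. It ranged from 8.48 to 8.68 log2 CPM in CTRL with a median of 8.60 (mean 8.58 ± 0.08, SD, n = 7). DPAn-6 replicates 1 to 5 had 8.57, 8.64, 8.66, 8.63 and 8.68 (mean 8.64 ± 0.04, SD, n = 5). The groups overlapped almost wholly, with an edgeR log2 fold change of 0.03 (SE 0.06, 95% interval -0.09 to 0.15, adjusted p = 0.867).

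Gria2 (ENSMUSG00000033981, chr3:80681450-80802835, minus strand), whose RNA-edited product makes receptors nearly impermeable to calcium, varied more between the CTRL mice than between the groups. It ranged from 8.80 to 9.54 log2 CPM in CTRL with a median of 9.03 (mean 9.08 ± 0.26, SD, n = 7). DPAn-6 replicates 1 to 5 had 8.96, 9.15, 9.13, 9.26 and 8.95 (mean 9.09 ± 0.13, SD, n = 5). CTRL replicate 3 was the highest mouse, and all 5 DPAn-6 mice lay inside the CTRL range. The edgeR log2 fold change was -0.03 (SE 0.12, 95% interval -0.29 to 0.23, adjusted p = 0.950), and without CTRL replicate 3 it was 0.07.

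Gria3 (ENSMUSG00000001986, chrX:41400854-41678601, plus strand) is an X-linked gene whose product often pairs with that of Gria2 in cortical receptors. It ranged from 7.64 to 8.36 log2 CPM in CTRL with a median of 7.87 (n = 7) and from 7.89 to 8.15 in DPAn-6 with a median of 8.07 (n = 5). Its edgeR log2 fold change was 0.05 (SE 0.11, 95% interval -0.19 to 0.29, adjusted p = 0.901). Gria4 (ENSMUSG00000025892, chr9:4417896-4796234, minus strand) is abundant in fast-spiking interneurons. It ranged from 6.36 to 7.11 log2 CPM in CTRL with a median of 6.57 (n = 7) and from 6.60 to 6.88 in DPAn-6 with a median of 6.69 (n = 5). Its edgeR log2 fold change was also 0.05 (SE 0.12, 95% interval -0.21 to 0.30, adjusted p = 0.911). For both genes the CTRL range enclosed the DPAn-6 range, and CTRL replicate 3 was again the highest mouse. Without that mouse the log2 fold changes were 0.13 for Gria3 and 0.15 for Gria4 (adjusted p = 0.327 and 0.230 by edgeR).

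The intervals bound what could have been missed. A difference as large as that of Nptx2, 0.67 on the log2 scale, lay outside the 95% interval of each of the other 6 members, whose upper ends ran from 0.15 for Gria1 to 0.30 for Gria4. Thus 1 of the 7 members was called, against 1.55% of all genes tested in either direction, 0.408% called higher and 1.14% called lower. The study had already reported Nptx2 as higher in these same mice, and the members were chosen with earlier results known. The shares and ranks given here are therefore a description and not independent evidence on the members. The same gene was the only member whose groups did not overlap, against 1.73% of all genes with every DPAn-6 mouse above every CTRL mouse. Nptx2 ranked 63rd of 15688 genes by p and 21st by log2 fold change among the 64 genes called higher.

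**Figure D2:**
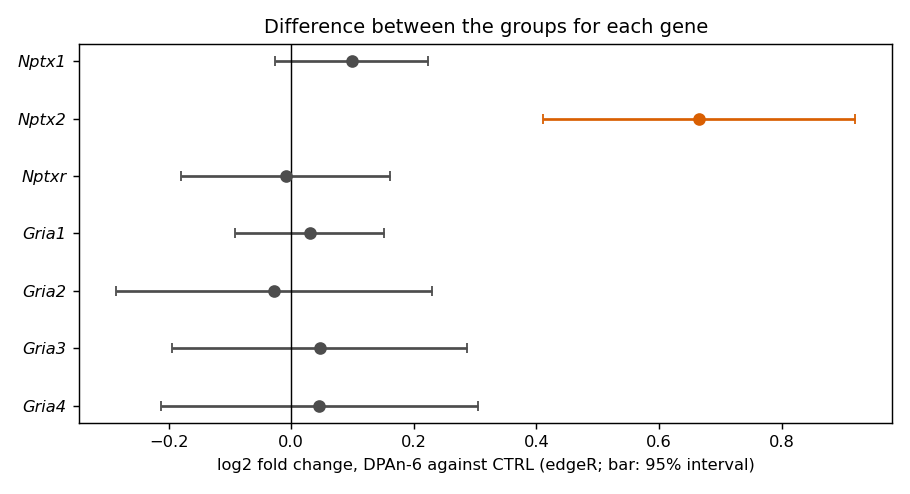
Log2 fold change of DPAn-6 against CTRL (horizontal axis) from edgeR with its 95% interval for each of the 7 genes; orange marks an adjusted p below 0.05. The interval of Nptx2 runs from 0.41 to 0.92 and the intervals of the other 6 genes all include 0.

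Per kilobase of exon, the pentraxins spanned a wider range than the subunits. Nptxr had the highest level, at 218 ± 19.6 CPM per kb (SD, n = 12 mice), followed by Nptx1 at 95.7 ± 7.03. Among the subunits Gria1 led at 64.4 ± 3.01 CPM per kb, ahead of Gria2 at 35.2 ± 5.34, Gria3 at 26.0 ± 3.56 and Gria4 at 16.2 ± 2.45. Nptx2 averaged 20.7 ± 6.12 CPM per kb over all mice.

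The upper part of this order held in every mouse: Nptxr was above Nptx1, Nptx1 above Gria1, Gria1 above Gria2 and Gria2 above Gria3 in 12 of 12. The place of Nptx2 differed between the groups. In CTRL it averaged 16.5 CPM per kb, near Gria4 at 15.8, and it exceeded Gria4 in 5 of 7 mice and was below Gria3 in 6 of 7. In DPAn-6 it averaged 26.6 CPM per kb, near Gria3 at 26.7, and it exceeded Gria4 in 5 of 5 mice and was below Gria3 in 2 of 5. The choice of length mattered for Gria2 and Gria3, which have long exon unions of 15548 and 9859 bases but longest transcripts of 10371 and 5206 bases. Per kilobase of the longest transcript, Gria2 (52.8 CPM per kb) and Gria3 (49.2 CPM per kb) were close, with Gria2 ahead in 10 of 12 mice, and Gria3 was above Nptx2 in 12 of 12.

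**Figure D3:**
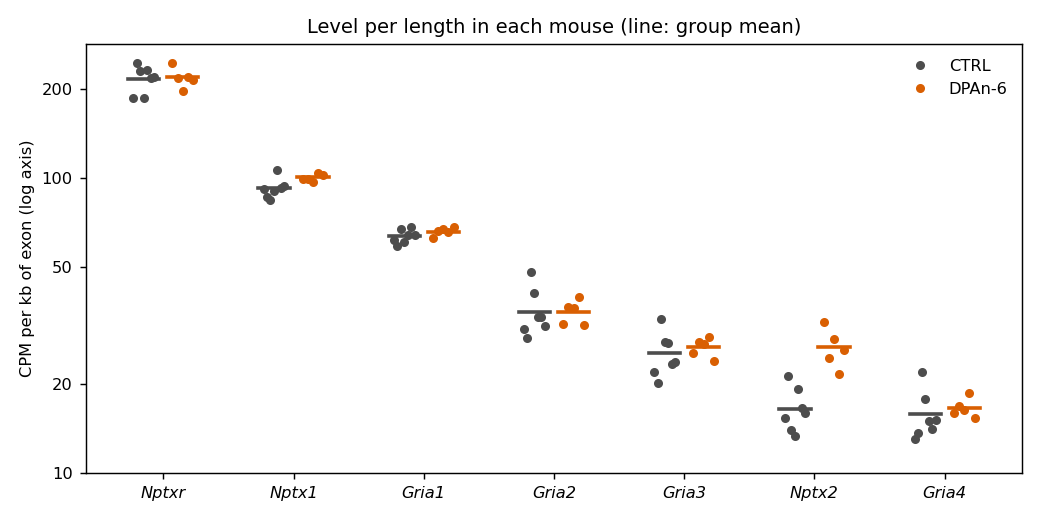
Level of each gene in CPM per kb of exon (vertical log axis) in each CTRL mouse (grey) and DPAn-6 mouse (orange), with lines at the group means and genes ordered by their mean over 12 mice. Nptxr is highest at 218 CPM per kb on average, and Nptx2, whose groups separate, lies near Gria4 in CTRL (16.5 against 15.8 CPM per kb) and near Gria3 in DPAn-6 (26.6 against 26.7).

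As shares of the 3 pentraxins per exon length, Nptx2 made up 5.05 ± 0.58% in CTRL (SD, n = 7) and 7.68 ± 1.05% in DPAn-6 (SD, n = 5). Nptxr, the largest share, was 66.5 ± 2.54% in CTRL and 63.3 ± 1.51% in DPAn-6, and Nptx1 was 28.4 ± 2.60% and 29.0 ± 1.62%. The make-up of the AMPA receptor transcripts was nearly the same in both groups. Gria1 took 45.7 ± 3.85% in CTRL and 45.7 ± 2.15% in DPAn-6, and Gria2 25.03 ± 2.0% and 24.3 ± 1.19%. Gria3 took 18.1 ± 1.29% and 18.5 ± 0.70%, and Gria4 11.2 ± 1.00% and 11.5 ± 0.48%. These shares depended on the choice of length. Per length of the longest transcript, Gria1 to Gria4 took 37.0%, 27.9%, 25.4% and 9.68% in CTRL. In DPAn-6 they took 37.0%, 27.1%, 26.0% and 9.91% by that length. Within libraries the log2 ratios of Gria1, Gria3 and Gria4 to Gria2 differed between the groups by 0.04, 0.07 and 0.08, with exact permutation p of 0.722, 0.128 and 0.0909 and adjusted p of 0.722, 0.191 and 0.182 over the 6 ratios.

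Between mice of the same group, Gria2, Gria3 and Gria4 moved together. After each group's mean was removed, 21 pairs of members were correlated over the 12 mice on TMM log2 CPM, and 3 had a permutation p adjusted over the 21 pairs below 0.05. Pearson's r was 0.945 for Gria2 and Gria3 (Spearman's rho 0.909, adjusted permutation p = 0.00042 and 0.00294), 0.953 for Gria2 and Gria4 (rho 0.874, adjusted permutation p = 0.00154 and 0.00931) and 0.922 for Gria3 and Gria4 (rho 0.909, adjusted permutation p = 0.00105 and 0.00294). With the 2 most extreme mice left out for the gene named first, r was 0.870, 0.848 and 0.847. The pairs of Gria1 with the other 3 subunits had r from 0.441 to 0.521 and did not pass, nor did any pair with a pentraxin. The strongest of these was -0.635 for Nptx2 and Gria2 (rho -0.650, adjusted permutation p = 0.192 and 0.136).

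The same 3 subunits followed the GC trend of the libraries. Gria2 has a GC content of 36.8%, lower than nearly all genes tested (percentile 1.17). Gria3 has 39.8% and Gria4 44.3%, against a median of 49.7% over the genes tested. Gria1 is near that median at 48.5%, and the pentraxins are above it, with 54.9% for Nptx1, 58.3% for Nptx2 and 59.6% for Nptxr.

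Of 14 relations computed between a member and the GC or length trend of the libraries, the relation to the GC trend had r of -0.962 for Gria2 (rho -0.839, adjusted permutation p = 0.00084 and 0.0192). It was -0.912 for Gria3 (rho -0.804, adjusted permutation p = 0.00084 and 0.0192) and -0.949 for Gria4 (rho -0.755, adjusted permutation p = 0.00481 and 0.0242). Without CTRL replicate 3 and DPAn-6 replicate 4, the libraries farthest from the median trend, r was -0.916, -0.798 and -0.795. With length the 3 subunits had r from 0.773 to 0.845 (adjusted permutation p from 0.00728 to 0.0481), which fell to between 0.386 and 0.690 without CTRL replicate 3 and DPAn-6 replicate 2. Nptx2 had r = 0.605 with the GC trend (rho 0.762, adjusted permutation p = 0.0914 and 0.0192).

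When the length and GC trend was removed from each library, an alternative applied to these correlations after the data were seen, none of the 21 pairs passed. The r of the 3 subunit pairs was then 0.636 for Gria2 and Gria3, -0.64 for Gria2 and Gria4 and -0.19 for Gria3 and Gria4. The difference in Nptx2 was nearly as large after this step, with a log2 fold change of 0.64 (adjusted p = 0.00301 by edgeR) and every DPAn-6 mouse above every CTRL mouse. For Gria2 the log2 fold change turned from -0.03 to 0.13 (adjusted p = 0.337 by edgeR).

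**Figure D4:**
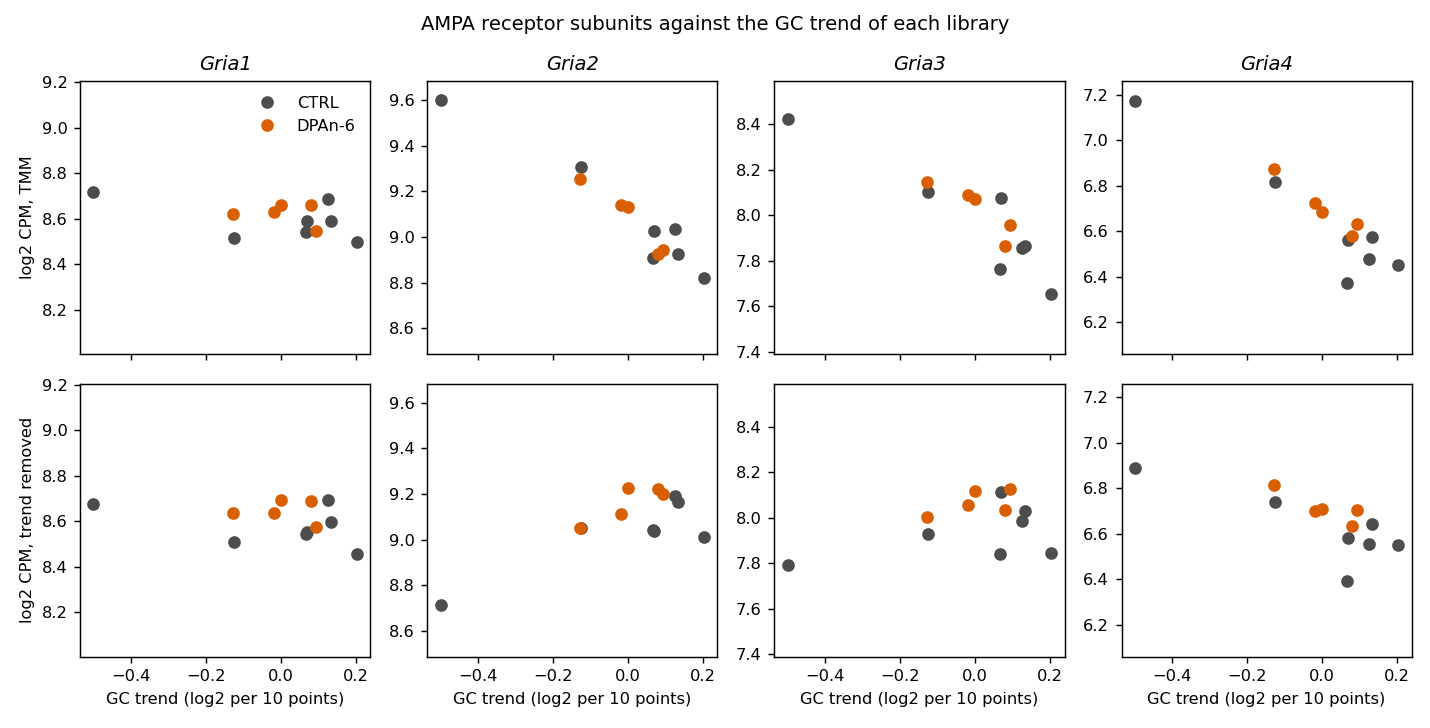
Level of Gria1 to Gria4 in each library (vertical axes, TMM log2 CPM in the upper row, the same with the length and GC trend removed in the lower row) against the library's GC trend in log2 units per 10 percentage points of GC (horizontal axis), CTRL in grey and DPAn-6 in orange. CTRL replicate 3 lies alone at -0.50, and Gria2, Gria3 and Gria4 fall as the trend rises (r = -0.962, -0.912 and -0.949), while Gria1 does not follow it closely (r = -0.498).

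Age was crossed with treatment, so the members could be compared at 12 and 14 months. The mean difference in Nptx2 was 0.67 log2 CPM at 12 months (2 mice against 2) and 0.72 at 14 months (3 against 5). The 2 DPAn-6 mice of 12 months had 5.78 and 6.17, and the 2 CTRL mice of that age 5.28 and 5.34. For Nptx1 the differences were 0.12 and 0.13.

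The differences of Gria2 were 0.28 at 12 months and -0.12 at 14 months, those of Gria3 0.30 and -0.02, and those of Gria4 0.31 and -0.02. The term for a difference between the ages was not called for any of the 7 members, against 0.00637% of all genes, and the smallest unadjusted p was 0.0866 for Gria2 (-0.45, adjusted p = 0.905 by edgeR). Once the length and GC trend was removed, the same term was 0.13 for Gria2, 0.01 for Gria3 and -0.23 for Gria4, against -0.45, -0.36 and -0.38 before, and none was called. No member was called between the ages within the fit with age as a covariate, where 0% of all genes were called and 7 of 7 members had an adjusted p of 1.00 by edgeR.

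The next 5 lists covered proteins that work with the AMPA receptor, other ionotropic glutamate receptors, and the pentraxin family with its partners. Of their 75 genes tested 1 was called, a gene of the pentraxin list, against 1.55% of all genes in either direction. At that share, a list of 10 to 21 genes without a call is not set apart from other genes. The 15 auxiliary subunits, which set the gating and surface expression of the channel, held no called gene, and their median log2 fold change was 0.02, beside -0.0047 over all genes tested. The highest values were 0.38 for Syndig1, 0.33 for Shisa8 and 0.23 for Cacng2, the gene of stargazin, with adjusted p of 0.164, 0.586 and 0.187 by edgeR. Among 10 genes of receptor assembly none was called (median 0.06), with Olfm2 at 0.23 (adjusted p = 0.0977 by edgeR).

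The 21 scaffold and trafficking genes held no call and had a median of 0.04. Grasp, the gene of the scaffold protein tamalin, had a log2 fold change of 0.31 (adjusted p = 0.107 by edgeR). Homer1, a postsynaptic scaffold gene, had 0.29 and Camk2a, the kinase gene of synaptic potentiation, -0.21, with adjusted p of 0.305 and 0.249 by edgeR. The 13 tested subunits of other ionotropic glutamate receptors, the closest relatives of the Gria genes, held no call either (median 0.02). Grin2b of the NMDA receptor had -0.26, and Grik4 and Grik2 of the kainate receptors had 0.23 and -0.18. At an unadjusted p below 0.05, 13 of the 75 genes passed, against 14.5% of all genes.

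Of 20 genes of the pentraxin family, its synaptic partners and its processing, 16 passed the filter and 1 was called. Svep1, which encodes a large extracellular protein with a pentraxin domain, fell by 0.95 on the log2 scale (SE 0.21, adjusted p = 0.0332 by edgeR), from 1.43 ± 0.26 log2 CPM in CTRL (SD, n = 7) to 0.47 ± 0.47 in DPAn-6 (SD, n = 5). The list's median was -0.07, and it turned to 0.05 with the length and GC trend removed. C1ql3, a synaptic C1q-like gene, had 0.27 and C1qa, a complement gene of microglia, -0.46, with adjusted p of 0.0954 and 0.111 by edgeR. With the trend removed, 5 of the 75 genes were called against 3.45% of all genes: Cnih3 (0.24), Homer1 (0.41) and Grik4 (0.28) higher, Svep1 (-0.82) and C1qa (-0.50) lower.

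Adcyap1, Bdnf and Vgf, neuropeptide and growth factor genes that the study's text names, were all called higher by edgeR, against 0.408% of all genes. The log2 fold changes were 0.77 for Adcyap1 (adjusted p = 0.00302 by edgeR), 0.56 for Bdnf (adjusted p = 0.0276) and 0.45 for Vgf (adjusted p = 0.0412). Each of the 5 DPAn-6 mice was above every CTRL mouse for all 3 genes, as was so for 1.73% of all genes. The study chose Adcyap1, Vgf and Nptx2 itself on these mice, so their directions are not independent evidence, and its text mentions Bdnf as background.

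**Figure D5:**
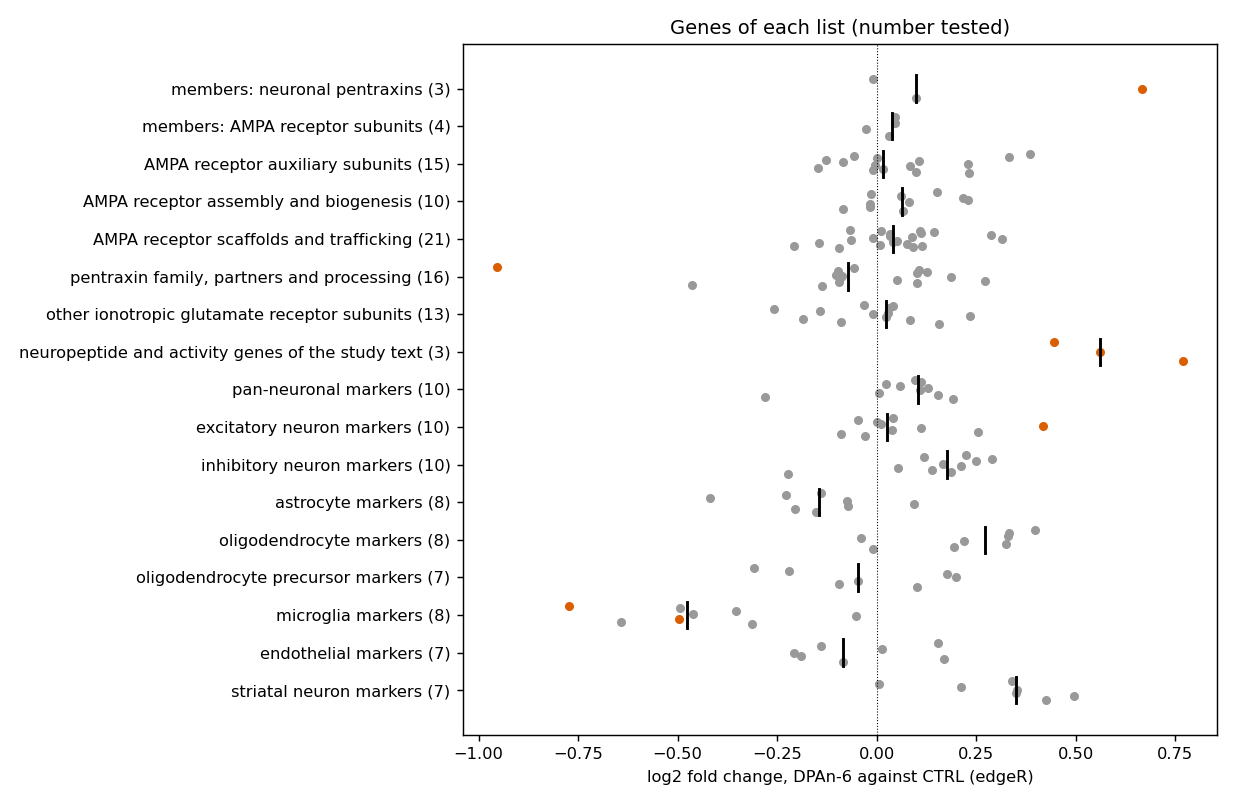
Log2 fold change of DPAn-6 against CTRL (horizontal axis) of each gene of the members and lists named at the left with the number tested; orange marks an adjusted p below 0.05 and the black bars are medians. The 5 lists of AMPA receptor partners, other glutamate receptors and the pentraxin family have medians from -0.07 to 0.06. They hold 1 called gene, Svep1, at -0.95, and the microglia list lies wholly below 0.

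Markers of the cell types that express the members, and of others that a cortex sample can hold, were compared as well. Excitatory neuron markers were present in every library, at a summed 4959 to 5614 CPM in CTRL and 5451 to 5707 CPM in DPAn-6. Their median log2 fold change was 0.03, and 1 of 10 was called, Nrn1 (0.42, adjusted p = 0.0260 by edgeR), itself an activity-related gene. Inhibitory neuron markers had a summed 919 to 1051 CPM in CTRL and 1037 to 1214 CPM in DPAn-6. Their median was 0.18, with 9 of 10 above 0 and no call. The median was 0.10 for pan-neuronal, 0.27 for oligodendrocyte and -0.15 for astrocyte markers, also without a call.

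Relative to the mean log2 CPM of the excitatory markers, Nptx2 was higher in DPAn-6 by 0.58 (exact permutation p = 0.0139), and the groups then overlapped. Relative to the same markers Nptx1 differed by 0.01 (exact permutation p = 0.947), against 0.13 in mean log2 CPM without this reference. Of the 10 reference genes 7 had a log2 fold change above 0. They include Nrn1 and Neurod2 (0.25, adjusted p = 0.0626 by edgeR), for which every DPAn-6 mouse was above every CTRL mouse. Of 8 microglia markers 2 were called lower, Tmem119 (-0.77) and Csf1r (-0.50), and 0 of 8 were above 0 (median -0.48). The part of these differences in the values of the members was not tested.

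None of the 4 choroid plexus markers tested was called, though all 4 had a log2 fold change below 0 and an unadjusted p below 0.05 by edgeR. The choroid plexus list summed to 12.9 to 1666 CPM in CTRL and 7.51 to 23.3 CPM in DPAn-6, and its most abundant gene, Ttr, had a log2 fold change of -6.01 (adjusted p = 0.0553 by edgeR). With the level of Ttr as a covariate, the log2 fold change of Nptx2 was 0.89 (adjusted p = 0.0269 by edgeR, 0.108% of all genes called). Striatal neuron markers summed to 291 to 729 CPM in CTRL and 268 to 577 CPM in DPAn-6 (median 0.35, no call).

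The genes most like each member were ranked by Pearson's r over the 12 mice with group means removed, as a description. For Nptx2 they were Iqsec3 (r = 0.951), Cdk3-ps (0.930) and Rnf25 (0.925), none of which was called between the groups. For Nptx1 the top gene was Gapvd1 (0.889) and for Nptxr Wiz (0.930). For Gria1 it was Morc2a (0.927). Gria2, Gria3 and Gria4 had closer neighbours, Fam217b (0.989), Zdhhc21 (0.985) and Zfp800 (0.985). All these r were computed on TMM log2 CPM, without removal of each library's length and GC trend.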

How the data were processed

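Cortex poly(A) RNA of 12 mice was sequenced, and the deposited table holds raw gene counts that the authors made with STAR 2.5.3a (gene counts mode) against GRCm38 with Ensembl 88. Which strand setting was counted is not stated in the labels or methods read here. Members and partner lists were chosen with earlier results of these data known. Identifiers were matched to GRCm38 annotation, which gave exon length and GC content.

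Counts were tested with edgeR 4.0.16 (TMM, default expression filter, quasi-likelihood test, Benjamini-Hochberg over 15688 genes) in R 4.3.3, after the code was tested on simulated data. Single values were tested with two-sided exact permutation tests over 792 splits, and correlations with 100000 permutations. The study's methods use limma-voom, which was an alternative (limma 3.58.1) beside DESeq2 1.42.0, other scalings and filters, age or Ttr as covariate, 14-month mice only, the replicate block, removal of each library's length and GC trend (splines on log2 CPM) and leaving out each mouse. Named genes were the 7 members, each list's called genes, filled up to 3 by largest absolute log2 fold change, and the 3 genes most like each member. A few list genes outside this rule, such as Cnih3, were named after their values were seen. The libraries held 15208803 to 26520251 counts.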

Additional observations from a re-analysis of the deposited data

Results flagged for a closer look

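The log2 ratio of Nptx2 to Nptx1 in CTRL replicate 2 was -3.06, far from the other 6 CTRL mice by Dixon's test (statistic 0.606 against a limit for 7 mice at the 95% level). It was the single such value among 28 groups of values tested, and chance alone marks about 1 in 20 groups.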

How the results depend on the processing

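The log2 fold change of Nptx2 stayed above 0 in all 24 alternatives (0.60 to 0.89), and its adjusted p was below 0.05 in 22. The number of called members was 0 in the 14-month mice and 0 to 1 when single mice were left out, 0 being without DPAn-6 replicate 3. The number of genes called, 243, was 687 with DESeq2, 1267 with sample weights, 17 with Ttr as covariate, 9 in the 14-month mice, 540 with the length and GC trend removed and 64 to 953 when single mice were left out, the extremes being without DPAn-6 replicate 3 and without CTRL replicate 3. Of the 6 ratios 0 passed in the 14-month mice, of 21 correlations 0 passed with the trend removed, and of the 162 list genes 18 rather than 7 were then called. The cause of these shifts was not tested.

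With the replicate number as a block, 142 genes were called and Nptx2 had 0.66 (adjusted p = 0.0388). Same-numbered mice did not deviate together (r from -0.12 to 0.22 over 5 pairs, 1 of 10 libraries correlating best with its own number). A pairing by number was thus not seen, though 5 pairs are too few to exclude it.

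Small differences turned sign. For Nptxr the log2 fold change was 0.018 with sample weights, 0.015 without TMM, 0.010 without a filter, 0.0061 with age and 0.12 with Ttr as covariate. For Gria2 it was 0.067 with sample weights and 0.13 with the trend removed, and for Gria3 and Gria4 -0.061 and -0.067 in the 14-month mice. With single mice left out it ran from -0.045 to 0.029 for Nptxr, from -0.072 to 0.072 for Gria2 and down to -0.0017 for Gria3. Differences of mean log2 CPM were, for Nptxr, -0.0045 with TMM, -0.097 relative to excitatory markers and -0.0065 with the trend removed. They were -0.061 for Gria1, -0.10 for Gria2, -0.029 for Gria3 and -0.026 for Gria4 relative to excitatory markers, -0.0100 for Gria2 with TMM, and -0.12, -0.017 and -0.018 for Gria2, Gria3 and Gria4 in the 14-month mice. With the trend removed, the ratios of Gria1 and Gria4 to Gria2 differed by -0.062 and -0.042, the r of Gria4 with Gria2 and Gria3 was -0.64 and -0.19, and the median of the pentraxin partner list was 0.054. The ratio of Gria1 to Gria2 ran from -0.022 to 0.086 with single mice left out.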
